A study of Mus musculus with 2 samples.

Results

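The HMG-box and T lineage commitment factors are 10 genes for nuclear proteins that set up and keep T cell identity, and they were followed here in Vγ6 γδ T cells. The HMG box is a DNA-bending domain, and 6 of the genes carry one: Tcf7, Lef1, Sox4, Sox5, Tox and Tox2. The other 4 are Bcl11b, Gata3, Satb1 and Bach2. They were chosen by name, taking each row of the deposited table whose platform gene symbol is one of them, also where a row names several genes. This gave 9 genes with 1 row each, of 30142 genes and 65956 rows in all. Tcf7 was not analysed here, because no row used here carries its symbol.

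The cells were sorted by flow cytometry, after antibody staining, from thymi of C57BL/6 mice aged 0 days. The mice were either MHC class II KO (KO for short), which lack the molecules that show peptides to CD4 T cells, or WT. Each genotype had 1 array, so the study asked its question, what Vγ6 cells express when MHC class II is missing, with 2 arrays in all. No difference has an error, a test or a replicate check, and every difference describes these arrays. The labels do not give which class II gene was disrupted or whether animals were pooled. Tcrg-V6, the Vγ6 segment itself, had a log2 signal of 12.33 on the KO array and 12.64 on the WT array, both over background, and the receptor signalling chain gene Cd3e had 16.87 on the KO array and 16.90 on the WT array. All 12 measured γδ T cell markers were above background and within 1.5-fold, as were 13566 of all 14494 genes above background. The log2 signal was higher on the KO array for 7 of the 12 and lower for 5. The furthest apart were 5830411N06Rik, by 0.52, and Blk, by 0.47, both higher on the KO array.

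In the thymus, Notch signals switch on Tcf7, and its product TCF-1 then opens the T cell programme together with GATA3. Bcl11b follows and closes the other fates, which is known as commitment. LEF-1, the closest relative of TCF-1, binds the same DNA core and can work with β-catenin or with Groucho (TLE) repressors. In mouse γδ T cells, SOX4 and the related SOX13 are known for their part in the subset that makes interleukin 17.

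Each difference is a subtraction on the log2 scale, KO array minus WT array, so a positive value means a higher signal in MHC class II KO cells. A row counted as above background when its signal passed the 95th percentile of 1228 rows of olfactory receptor genes, whose known site of expression is the nose. That level was a log2 signal of 5.86 on the KO array and 5.94 on the WT array. Of the 9 measured factors, 8 were above background on both arrays, and Sox5 was above it on neither. In bulk RNA of this kind, fewer cells of a type and less RNA per cell cannot be told apart. Signals of different rows come from different probes and are not set against each other.

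The promoters of the factors at the ends of the range are shown because LEF-1 and TCF-1 bind a short DNA core, so a reader can see where its letters stand. The sequences are the 250 bases before the start site from RefSeq, build GRCm38.p6, written 5′ to 3′ along the gene's strand, with the core CTTTGA, or its reverse complement TCAAAG, in capitals. Bcl11b lies on the minus strand at chr12:108003415-108003664, Bach2 on the plus strand at chr4:32417185-32417434, and the upstream and internal Lef1 starts (the first and the last of 4 in the table) have chr3:131110047-131110296 and chr3:131156044-131156293 on the plus strand.
Bcl11b: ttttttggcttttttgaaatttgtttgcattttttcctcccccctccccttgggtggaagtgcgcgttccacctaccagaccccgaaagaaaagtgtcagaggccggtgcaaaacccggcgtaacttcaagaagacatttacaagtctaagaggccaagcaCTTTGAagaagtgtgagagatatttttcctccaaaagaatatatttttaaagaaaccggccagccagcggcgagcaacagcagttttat
Bach2: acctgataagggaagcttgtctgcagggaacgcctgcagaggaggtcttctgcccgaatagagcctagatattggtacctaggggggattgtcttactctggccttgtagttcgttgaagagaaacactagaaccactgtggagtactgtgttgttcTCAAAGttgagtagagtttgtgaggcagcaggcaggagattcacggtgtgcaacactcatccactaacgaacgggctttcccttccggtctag
Lef1, upstream start: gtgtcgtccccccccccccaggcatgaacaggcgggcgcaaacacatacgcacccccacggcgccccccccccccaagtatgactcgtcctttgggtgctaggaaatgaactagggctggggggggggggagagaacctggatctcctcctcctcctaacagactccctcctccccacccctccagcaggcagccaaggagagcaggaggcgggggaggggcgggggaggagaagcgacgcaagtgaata
Lef1, internal start: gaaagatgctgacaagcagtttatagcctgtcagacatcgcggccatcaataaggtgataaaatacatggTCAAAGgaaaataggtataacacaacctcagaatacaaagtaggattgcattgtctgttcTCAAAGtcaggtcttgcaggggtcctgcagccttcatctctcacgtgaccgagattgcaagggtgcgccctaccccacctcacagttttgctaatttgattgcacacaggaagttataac
The core begins 89 bases before the start of Bcl11b and 93 bases before that of Bach2. It is not in the window of the upstream Lef1 start, and it begins 180 and 120 bases before the internal one. Of 32851 RefSeq promoter windows of the same length, 13.8% hold this core on either strand. The match is a description of letters, and the arrays did not measure binding.

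Bcl11b, a zinc finger gene needed for commitment, was the factor with the highest difference. Its log2 signal was 12.62 on the KO array, against 11.96 on the WT array, a difference of 0.66 or 1.58-fold higher. It was the 1 factor of the 8 above background that was at least 1.5-fold higher, where 3.74% of 14494 genes above background were. At that size or higher stood 2.91% of these genes. Among 738 genes whose mean log2 signal lay within 0.5 of that of Bcl11b, 4.47% were at least as far apart in either direction. The distance therefore put Bcl11b in the outer part of the range of all genes, though not beyond it.

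Lef1 was the factor with the lowest difference. Its log2 signal was 11.38 on the KO array, against 11.89 on the WT array, a difference of -0.51, which made WT 1.42-fold higher. No factor above background reached 1.5-fold lower, where 2.66% of all genes did. Of 925 genes of like signal, 7.68% were at least as far apart as Lef1. Bcl11b and Lef1 were thus on opposite sides of 0, both well above background on both arrays.

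**Figure D1:**
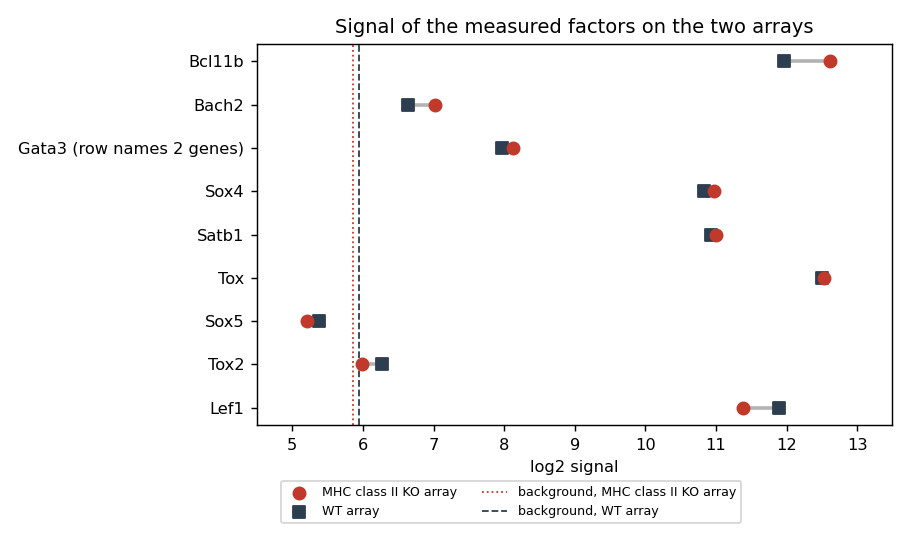
Log2 signal (horizontal axis) of the 9 measured factors (rows), with the KO array as red circles and the WT array as dark squares. The dotted and dashed vertical lines are the backgrounds of the MHC class II KO and WT arrays. Each row is read on its own. Bcl11b and Lef1 have the widest gaps, in opposite directions, and Sox5 lies left of both lines.

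Among the SOX genes, Sox4 had a log2 signal of 10.97 on the KO array and 10.82 on the WT array. Its difference of 0.14 is common, since 57.3% of genes above background were at least as far apart. Sox5, which encodes a SOX protein without an activation domain of its own, had 5.21 on the KO array and 5.38 on the WT array. Both values were under background, so no fold is given for it.

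The TOX genes encode HMG-box proteins known from the development of CD4 T cells and innate lymphoid cells. Tox had a log2 signal of 12.53 on the KO array, against 12.50 on the WT array. The difference of 0.03 turned to -0.01 once the median difference over all genes was taken off, so Tox has no direction here. Tox2 was close to background, with 5.99 on the KO array and 6.27 on the WT array. Its difference of -0.28 comes with signals only 1.09-fold and 1.26-fold over the backgrounds of those arrays. Of 2607 genes of like signal, 34.5% were at least as far apart.

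Gata3, whose zinc finger protein acts from the first steps of the T lineage, was held by a row that also names the transcript 9230102O04Rik. That row had a log2 signal of 8.13 on the KO array and 7.97 on the WT array, a difference of 0.16. The part of each transcript in it cannot be told apart. Satb1, the gene for a protein that organises chromatin loops in thymocytes, had 11.01 on the KO array and 10.93 on the WT array. Its difference of 0.07 is matched or passed in size by 75.6% of genes above background.

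Bach2, the gene for a repressor that restrains effector programmes in T cells, had the second highest difference. Its log2 signal was 7.02 on the KO array, against 6.64 on the WT array, a difference of 0.38 or 1.30-fold higher. The signals were 2.22-fold and 1.62-fold over the backgrounds of those arrays. Of 2627 genes of like signal, 20.3% were at least as far apart, so the size is common at this level.

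Of the 8 factors above background, 6 had differences above 0 and 2 below, and 7 lay within 1.5-fold. With a smaller threshold, a log2 difference of 0.32, 2 factors were higher (Bcl11b and Bach2) and 1 lower (Lef1), where 13.8% of all genes were higher and 8.95% lower. With a threshold of 2-fold no factor was higher or lower, where 0.738% and 0.807% of all genes were. The median was 0.11, beside a median of 0.04 over all 14494 genes, of which 56.4% had differences above 0. No factor had a second row to check its own difference. For 167 other genes that had 2 or more distinct rows over background, the gap between the differences of a gene's rows had an SD of 0.27. The sizes of the differences of Bcl11b, Lef1, Bach2 and Tox2 are larger than that SD, Tox2 by only a small margin. Those of Gata3, Sox4, Satb1 and Tox are smaller. The rows of a gene share the same 2 arrays, so this SD holds no spread between animals, sorts or arrays. It is no cutoff for calling a difference.

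**Figure D2:**
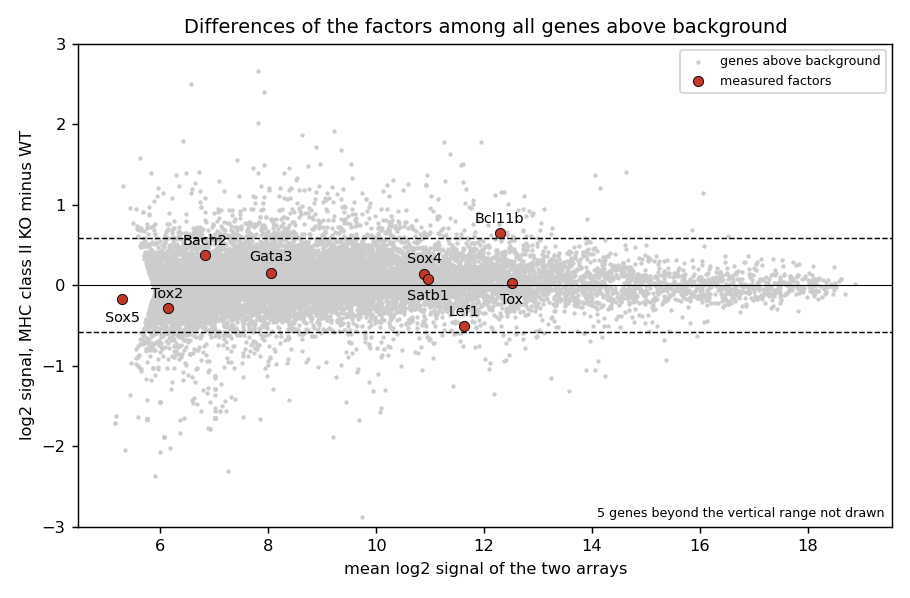
Difference in log2 signal, MHC class II KO minus WT (vertical axis), against the mean log2 signal of both arrays (horizontal axis), with 14494 genes above background in grey and the 9 measured factors in red. Dashed lines mark 1.5-fold, and 5 genes lie beyond the drawn range. Bcl11b is the single factor past a dashed line, and Lef1 lies just inside the lower one.

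Of 39 other HMG-box genes measured, 19 were above background, with a median of 0.01. None of the 19 was 1.5-fold or more apart, where 3.74% of all genes were higher and 2.66% lower by that much, and under the loess correction 1 was lower. Hbp1, which encodes a repressor of cell cycle and Wnt target genes, differed by -0.50. Hmgb2, the gene for an abundant chromatin protein of dividing cells, had 15.03 on the KO array and 14.55 on the WT array (0.48), and the histone methyltransferase gene Kmt2d differed by 0.43. Sox13, a marker and regulator of γδ T cells, differed by 0.14, the same as Sox4 to that precision. Of 7 measured relatives of the other factors, only Bach1 was above background (-0.12), and Bcl11a, the sister gene of Bcl11b, was under it on both arrays.

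Of 32 measured partners of TCF-1 and LEF-1 and Wnt target genes, 25 were above background and had a median of 0.01. All 25 lay within 1.5-fold, as did 13566 of the 14494 genes above background. Myc, a growth regulator, had 10.14 on the KO array and 9.73 on the WT array (0.41), Pygo2 differed by 0.40 and Gsk3a, one of the kinase genes that mark β-catenin for destruction, by 0.35. Axin2, a widely used readout of Wnt signalling, differed by 0.26, and its signal of 7.44 on the KO array stood against 7.18 on the WT array. The β-catenin gene Ctnnb1 was not analysed here.

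Chromatin proteins that act with these factors, such as the NuRD complex used by Bcl11b, were nearly all above background. Of 20 measured, 19 were above background, with a median of 0.09. Hdac1, the gene for a histone deacetylase, was the 1 member at least 1.5-fold higher (0.61), where 3.74% of all genes were. It lay inside 1.5-fold once differences were centred, under the loess correction, and when the rows of a gene were averaged. Hdac3 followed with 0.56 and Rcor1, a corepressor gene, with 0.49.

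Among genes of T cell commitment and identity, 33 were measured and 29 were above background. Of these, 6 were 1.5-fold or more higher and 0 that much lower, where 3.74% and 2.66% of all genes were. Differences were above 0 for 21 of the 29 and below 0 for 8, with a median of 0.30, beside 56.4% above 0 and a median of 0.04 over all genes. Il2ra, the interleukin 2 receptor chain whose appearance accompanies commitment, had 11.10 on the KO array and 9.91 on the WT array (1.19). Ly6d had 8.21 and 6.65 on those arrays (1.55), and Trat1, a receptor adaptor gene, differed by 0.79. Notch1 differed by 0.48 and Cd3e by -0.04. Ptcra, the pre-T cell receptor chain gene of αβ precursors, passed background only on the KO array, which bounds its difference at 0.49 or more.

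Progenitor and innate genes, listed here as switched off at commitment, were mostly not above background. Of 26 measured, 8 were above background, where 14494 of all 30142 genes were, with a median of -0.06. None of the 8 was 1.5-fold apart, where 3.74% of all genes were higher and 2.66% lower by that much. Zbtb16, which encodes the innate-like T cell factor PLZF, had 11.39 on the KO array and 10.92 on the WT array (0.47). It is also in the list of regulators of IL-17-producing γδ T cells. Id2, an inhibitor of E proteins, differed by -0.08. Klrd1, a receptor gene of NK cells, differed by -0.47 and Tyrobp by 0.34. Spi1 was not analysed here.

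Regulators and products of IL-17-producing γδ T cells spread in both directions. All 18 measured were above background, with 2 higher and 3 lower by 1.5-fold or more, where 3.74% and 2.66% of all genes were, and a median of -0.01. With the background at the 99th percentile, 1 was higher. The cytokine genes Il17f and Il17a differed by -2.88 and -1.57, and the chemokine receptor gene Ccr6 by 1.46. Maf, a regulator of this lineage, differed by 0.03. All 8 factors above background had differences smaller in size than those of Il17f, Il17a and Ccr6.

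Markers of double positive and αβ thymocytes, in which Bcl11b, Satb1, Gata3 and Lef1 are also known to be expressed, were higher on the same array as Bcl11b. Of 14 measured, 13 were above background, and counting bounds 8 were higher and 1 was lower by 1.5-fold or more, where 3.74% and 2.66% of all genes were. Their median was 0.74, beside 0.04 over all genes. The summed signal of the 14 markers was 38224 on the KO array and 17782 on the WT array. Most of both sums came from Cd8b1 alone, with log2 signals of 14.75 and 13.38 on those arrays, because a sum weighs bright rows most. Dntt passed background only on the KO array, which puts it at least 3.68-fold higher in KO cells, and Cd8b1 (1.38), Cd8a (0.74) and Cd4 (0.57) were higher while Ccr9 was lower (-1.29). Rag2 was under background on both arrays, and Rag1 was not analysed here. Of the other factors named with this list, Satb1 differed by 0.07 and the Gata3 row by 0.16. Lef1 differed by -0.51, in the opposite direction to this list. The part of such cells in the differences of Bcl11b, of Lef1 and of the commitment list was not tested.

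Of the markers of other cells in the thymus, only some were above background, as were 14494 of all 30142 genes. Of 11 measured B cell markers 3 were above background, with Ighm at 1.41, Cd79b at 0.11, Vpreb1 above background on the WT array alone, and a median of 0.11. Their summed signals were 42630 on the KO array and 16902 on the WT array. Most of both sums came from Ighm alone, with log2 signals of 15.33 and 13.93 on those arrays. Dendritic cell and macrophage markers passed background in 4 of 21 cases, with a median of 0.64. Irf8 was at 1.11, Cd68 at 0.91, and Lyz2 was above background on the KO array alone. Of the 4, 2 were higher by 1.5-fold or more, where 3.74% of all genes above background were. The sums of the 21 markers were 1622 on the KO array and 1159 on the WT array. Of 10 NK and innate lymphoid cell markers 5 were above background (median 0.16), of 13 thymic epithelial markers 5 (median -0.10), and of 10 mesenchymal, endothelial and red cell markers 4 (median -0.05). The part of these cells in the results was not tested.

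**Figure D3:**
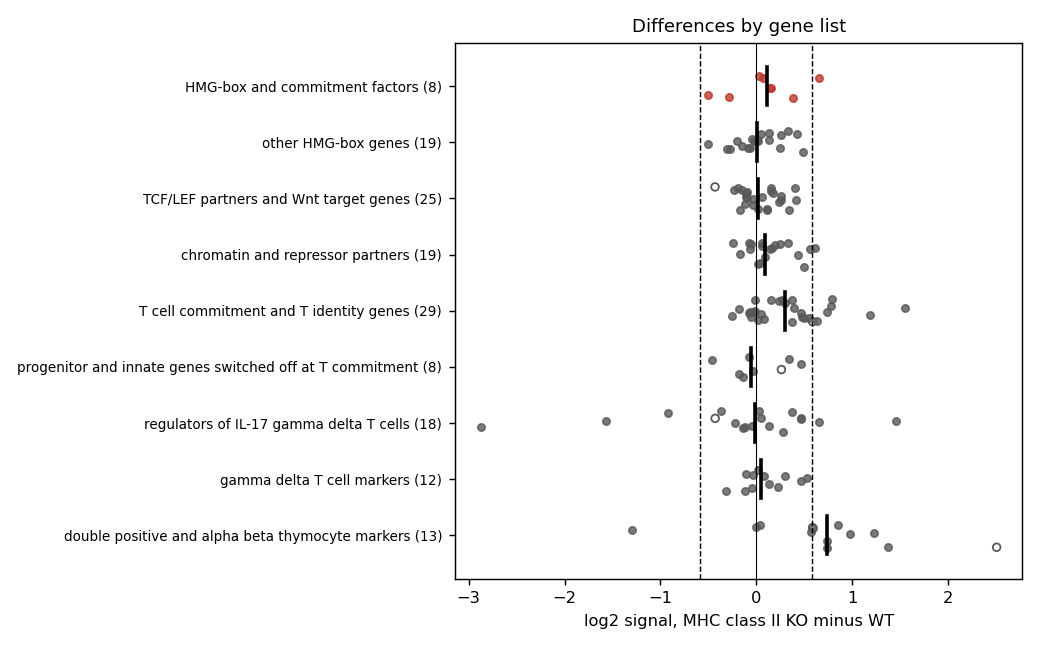
Difference in log2 signal, MHC class II KO minus WT (horizontal axis), of each gene above background in 9 lists (rows, with the number of genes drawn). Filled points are above background on both arrays, open points on 1 array, short black bars are medians and dashed lines mark 1.5-fold. The factors, in red, spread around 0, and the double positive thymocyte markers lie furthest to the right, with a median of 0.74.

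**Figure D4:**
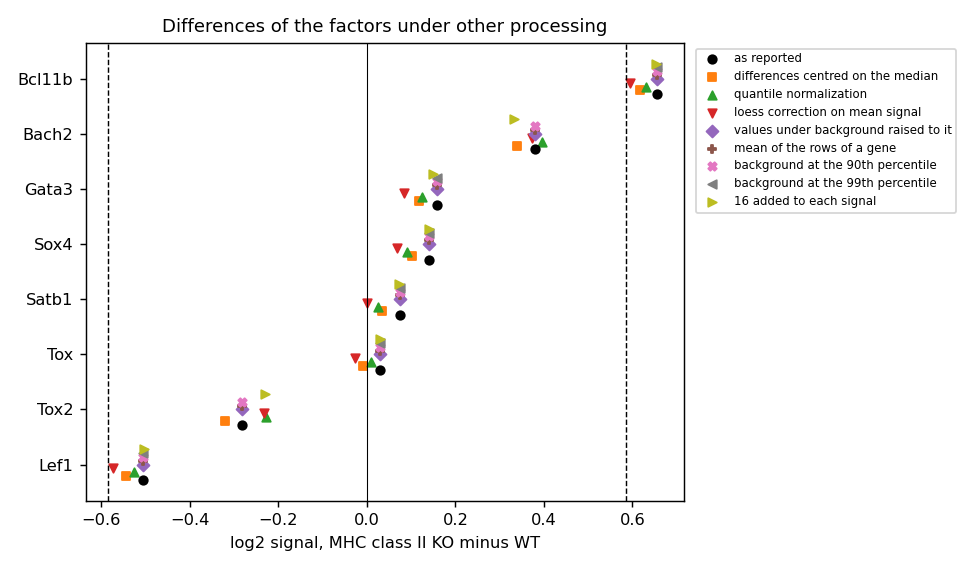
Difference in log2 signal, MHC class II KO minus WT (horizontal axis), of the 8 factors above background (rows) as reported and under 8 other ways of processing (symbols). Dashed lines mark 1.5-fold. Bcl11b stays right of the upper line, from 0.59 to 0.66, and Lef1 stays inside the lower one, from -0.57 to -0.50, while Tox crosses 0.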

How the data were processed

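The authors deposited linear intensities, 1 for each transcript cluster on each array, and RMA and Affymetrix Expression Console 1.4.1 are named per the submitters' processing notes. Per the labels' protocols, total RNA was amplified and biotin-labelled with a GeneChip whole-transcript kit. Neither the RMA variant nor the genome build is stated in those sources. Signals reach 487523 on the KO array and 480711 on the WT array, past the 65535 that a 16-bit scanner can read. An undescribed step therefore set the scale, and it could have widened or narrowed every fold.

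Here the log2 of each intensity was taken with Python 3.11.15. Rows with several distinct symbols (2146) or none (33206) entered no gene count, except the row of Gata3. Symbols were updated through gene identifiers for 827 of 22818 rows matched to RefSeq of assembly GRCm38.p6. The brightest row stood for a gene. Genes that passed background on neither array were dropped. A gene that passed it on 1 array is counted against a threshold by its bound. Medians, signs and drawn points use its plain difference. The number of arrays limits the precision, and no p-value can be given. The threshold for counting was 1.5-fold. The counting was tested on simulated data.

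The members and the 14 gene lists were chosen with earlier results of these data known. Named genes are all members, the 3 genes above background with the largest difference in each list, with bounds used, and 18 genes taken whatever their values, of which 3 were not analysed here. The alternatives were 3 scalings, raising low values to background, averaging rows, 2 other background percentiles, an added signal of 16, other thresholds, a mean, and lists without shared genes.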

Additional observations from a re-analysis of the deposited data

How the results depend on the processing

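The 8 scaling, background, row and offset alternatives moved no factor by more than 0.1 on the log2 scale, and Bcl11b was at least 1.5-fold higher under each. Its lowest value was 0.59, under the loess correction. The signs held for all factors but Tox, which was -0.01 after centring and -0.03 after the loess correction. Satb1 kept its sign only barely, at 0.00055 after the loess correction. Bach2 and Tox2 were no longer above background at the 99th percentile. The median of the factors lay between 0.03 and 0.11. The number of factors past the threshold depends on it: at a log2 difference of 0.32, 2 were higher and 1 lower, and at 2-fold 0 were higher and 0 lower. For the other lists, 133 of 140 medians moved by 0.1 or less and 7 by more, all 7 in marker lists with few genes above background. The commitment list kept a median between 0.26 and 0.33, also without genes shared with other lists (0.32). The medians near 0 of the other HMG-box genes, the TCF/LEF partners, the γδ markers, the IL-17 regulators and the mesenchymal, endothelial and red cell markers changed sign with the setting, and so did that of the NK and innate lymphoid cell markers (-0.18 to 0.23). No paired analysis was possible because each group had 1 array, and for the same reason no replicate could be left out.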

Other observations

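The other promoter windows of the factors were searched in the same way. The symbols matched 21 RefSeq start sites of 9 of the 10 genes, and 5 windows had the core CTTTGA on either strand, 2 of them windows of Tox2 that overlap in all but 1 base. The SOX core AACAAT was in 1 of the 21 windows, the first start of Tox2, where 9.42% of all windows hold it. The GATA letters AGATAA were in 0 of them, where 9.99% of all windows hold them. The share of G and C was 44.8% in the window of Bcl11b, 50.4% in that of Bach2 and 66.4% in that of the upstream Lef1 start, beside a median of 52.4% over all windows. These are descriptions of letters in short windows and say nothing of binding.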
